A study of Mus musculus with 12 samples.

Results

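A set of 10 genes of prostaglandin synthesis, breakdown and reception was followed in mouse glomeruli across 4 groups of 3 mice. They are the cyclooxygenases Ptgs1 and Ptgs2, the terminal synthases Hpgds, Ptgds, Ptges and Ptgis, the breakdown enzyme Hpgd, and the receptors Ptger1, Ptger4 and Ptgfr. The genes were chosen by name with their log2 fold changes between knockout and control in view, so those differences are given as a description without p-values, and the number that passed a threshold is stated beside the share of all genes that did and supports nothing. All 10 were listed in all 12 libraries, among 16298 genes listed in either arm of the study and 13475 listed in both.

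The groups were control and podocyte-specific DACH1 KO mice of the C57BL/6 strain background, untreated (baseline) or made diabetic with streptozotocin (STZ), which kills the beta cells of the pancreas. The podocyte is the epithelial cell that carries the filtration slits of the glomerulus, and Dach1 encodes dachshund-1, a nuclear regulator of transcription. Baseline mice were 10 weeks old. The STZ dose was 50 µg/g per day into the peritoneum for 5 days, and RNA was taken after a further 10 days. Glomeruli were collected with magnetic beads perfused through the heart, and total RNA was sequenced from 3 different mice per group. The sources used here do not give the promoter that drives the podocyte deletion, the meaning of the prefix hetN in the titles of the STZ controls or the age of the STZ mice. In such bulk RNA, fewer cells of a type and less RNA per cell cannot be told apart.

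Baseline libraries held 2.26e+07 to 2.49e+07 counts and STZ libraries 6.61e+07 to 7.86e+07. Dach1 was at 106 to 188 CPM (counts per megacount of the library, scaled by TMM) in the 6 control libraries and at 47.2 to 67.0 CPM in the 6 knockout libraries, with no overlap, as the labels have it. All 10 podocyte markers searched were listed, with sums of 20029 to 39490 CPM. The proximal tubule markers summed to between 1560 and 24764 CPM, the lowest and the highest both in baseline knockouts. By Xist and Ddx3y, each baseline group held 2 females and 1 male, the STZ controls were all male, and replicate 2 was the only female among the STZ knockouts.

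Cyclooxygenases turn arachidonic acid into prostaglandin H2, from which terminal synthases make the separate prostanoids: Hpgds and Ptgds make prostaglandin D2, Ptges makes prostaglandin E2 and Ptgis makes prostacyclin. Each prostanoid then acts on G protein-coupled receptors of its own, of which Ptgfr encodes the receptor of prostaglandin F2α and Ptger1 and Ptger4 encode receptors of prostaglandin E2. In the kidney these mediators are known for adjusting glomerular blood flow, renin release and the handling of salt and water.

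Hpgds, Ptgfr and Ptger4 carry most of what follows, and the 250 bases before the start of each in RefSeq are shown so that the promoter sequence stands beside the values. The sequences are from RefSeq (GRCm38.p6), 5′ to 3′ on the gene's strand, with capitals on any match to 6 motifs searched on both strands. The motifs were the TATA box (TATAAA), the CCAAT box (CCAAT), the forkhead core (TAAACA), the E-box (CACGTG), the cyclic AMP response element (TGACGTCA) and the C/EBP palindrome (TTGCGCAA). No motif overlapped another in these windows. The windows are chr6:65144731-65144980 for Hpgds, chr3:151837529-151837778 for Ptgfr and chr15:5244188-5244437 for Ptger4, all on the minus strand. RefSeq and GENCODE M21 place some starts differently: 178 bases of the Hpgds window and 102 of the Ptgfr window lie inside the GENCODE gene, and 0 of the Ptger4 window. Distances to a start are from that of RefSeq.
Hpgds: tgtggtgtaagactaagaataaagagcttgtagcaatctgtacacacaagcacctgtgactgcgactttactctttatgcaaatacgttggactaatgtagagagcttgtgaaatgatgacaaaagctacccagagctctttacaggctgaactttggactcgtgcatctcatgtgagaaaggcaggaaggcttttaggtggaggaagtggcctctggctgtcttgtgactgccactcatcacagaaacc
Ptgfr: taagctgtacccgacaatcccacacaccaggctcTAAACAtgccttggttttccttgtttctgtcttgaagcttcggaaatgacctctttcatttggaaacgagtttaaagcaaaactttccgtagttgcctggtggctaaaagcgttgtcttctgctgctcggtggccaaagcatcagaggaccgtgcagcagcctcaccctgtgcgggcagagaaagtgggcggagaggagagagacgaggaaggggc
Ptger4: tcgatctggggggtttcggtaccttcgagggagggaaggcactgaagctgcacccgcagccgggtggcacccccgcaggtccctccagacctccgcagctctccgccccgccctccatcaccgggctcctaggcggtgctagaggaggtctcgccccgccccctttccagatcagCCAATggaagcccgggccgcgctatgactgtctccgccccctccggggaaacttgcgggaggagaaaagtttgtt

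The Hpgds window holds 45.2% G and C and none of the 6 motifs. The Ptgfr window holds 52.0% G and C and a forkhead core 216 to 211 bases before the start, a motif found in 12.03% of the 32851 mouse promoter windows of the same length. The Ptger4 window is the richest of the 3 in G and C at 66.8%, against a median of 52.4% over all windows, and has a CCAAT box 75 to 71 bases before the start, which 33.9% of windows hold. Promoters were matched for 8 of the 10 genes (not for Ptger1 and Ptgis), and the only other match was a C/EBP palindrome in the Ptgs2 window, 69 to 62 bases before the start. That motif is in 0.164% of all windows. These matches describe the letters only.

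The prostaglandin D2 synthase Hpgds, the glutathione-dependent enzyme known from mast cells and T helper cells, showed the widest difference of the 10 genes between knockout and control. At baseline it stood at 0.607, 0.694 and 0.621 CPM in controls (47 counts over the 3 libraries) and at 15.3, 14.1 and 23.3 CPM in knockouts. After STZ it stood at 2.51, 1.06 and 1.12 CPM in controls and at 17.5, 50.2 and 46.9 CPM in knockouts. The lowest knockout library of either arm (14.1 CPM) lay above the highest control library (2.51 CPM). The fitted log2 fold change was 4.76 ± 0.27 (SE, 95% interval 4.12 to 5.41, n = 3 per group) at baseline. It was 4.62 ± 0.56 after STZ (95% interval 3.28 to 5.96), and 4.68 ± 0.34 over both arms with the arm as a block. The spread between mice was wider after STZ. There knockout replicate 1 lay far below the other knockouts, and control replicate 1 above the other controls. In replicates 1, 2 and 3, macrophage and dendritic cell markers summed to 149, 389 and 425 CPM in STZ knockouts. In STZ controls the sums were 970, 192 and 189 CPM. They were 67.3, 113 and 104 CPM in baseline controls. In baseline knockouts they were 93.4, 105.5 and 80.9 CPM, with Hpgds highest where the sum was lowest. The part of those cells in the Hpgds values was not tested.

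Hpgds lies on chromosome 6 from 65117293 to 65144908 (GENCODE M21, mm10, minus strand), with 6425 exonic bases. Its level per kb of exon was the lowest of 8 terminal synthases in both control groups, and it ranked 5 of 8 in baseline knockouts and 4 of 8 in STZ knockouts. Its share of the summed terminal synthase level per kb was 0.0806% ± 0.0202 (SD, n = 3) in baseline controls and 2.03% ± 0.66 in baseline knockouts. After STZ the shares were 0.225% ± 0.160 and 4.64% ± 2.17. Most of that sum came from Ptges3, the cytosolic prostaglandin E synthase that is also a chaperone of the heat shock protein system, with 70.0% to 84.6% as group means.

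Since Hpgds is known from mast cells and T helper 2 cells, markers of these cells were read beside it. Of 10 such markers, 4 were listed (Cpa3, Ms4a2, Kit and Gata2), and Mcpt4, Tpsb2, Cma1, Fcer1a, Il4 and Il5 were not. Every gene listed in the STZ arm reached at least 100 counts in some library, so a gene not listed may be low rather than absent. The summed level of the list was 90.2 to 101 CPM in baseline controls and 82.03 to 116 CPM in baseline knockouts. After STZ it was 69.2 to 95.3 CPM in controls and 53.4 to 76.2 CPM in knockouts. The groups overlapped in both arms (two-sided exact permutation p = 0.9 at baseline and 0.3 after STZ, with 0.1 the smallest p that 3 against 3 allows). Most of the sum came from the transcription factor Gata2, at group means of 41.4 to 74.4 CPM. The sum and its p therefore follow mainly that gene. With Il4 and Il5 not listed, they cannot decide whether mast or T helper 2 cells differed between the groups. The part of such cells in the Hpgds values was not tested. The mast cell carboxypeptidase Cpa3 averaged 3.07 and 3.00 CPM in baseline controls and knockouts and 3.34 and 3.81 CPM after STZ, and the IgE receptor subunit Ms4a2 averaged 5.29 and 2.95 CPM, and 4.69 and 4.84 CPM. The growth factor receptor Kit averaged 14.5 and 19.4 CPM at baseline and 13.7 and 13.3 CPM after STZ.

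Ptgds is the lipocalin-type prostaglandin D2 synthase, which also carries lipophilic molecules. Its baseline levels were 3.38, 2.70 and 4.39 CPM in controls and 2.88, 4.97 and 4.17 CPM in knockouts. After STZ they were 4.12, 4.11 and 6.58 CPM in controls and 13.1, 17.9 and 16.3 CPM in knockouts. The baseline groups overlapped, whereas all 3 STZ knockouts lay above all 9 other libraries. The log2 fold change between knockout and control was 0.20 ± 0.28 (SE, 95% interval −0.48 to 0.88) at baseline and 1.68 ± 0.24 (95% interval 1.11 to 2.25) after STZ. The difference between these, the interaction of knockout and STZ, was 1.47 ± 0.38 on the log2 scale (95% interval 0.64 to 2.31). It is made of the same contrasts and so is a description too. Within knockouts Ptgds was higher after STZ than at baseline by 1.96 ± 0.23 on the log2 scale in 3 of 3 libraries, with an adjusted p of 0.0503 that just missed the threshold of 0.05. In controls the same step was 0.47 ± 0.27 (adjusted p = 0.515).

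The D2 synthases were also set against each other. Per kb of exon, Hpgds stood at 0.0363 to 0.0660 of the level of Ptgds in baseline controls and at 0.729 to 1.43 in baseline knockouts. After STZ the ratio was 0.0437 to 0.156 in controls and 0.344 to 0.740 in knockouts. Neither receptor of prostaglandin D2 (Ptgdr, and Ptgdr2 also searched as Gpr44) was listed in any library, and both may be low rather than absent.

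**Figure D1:**
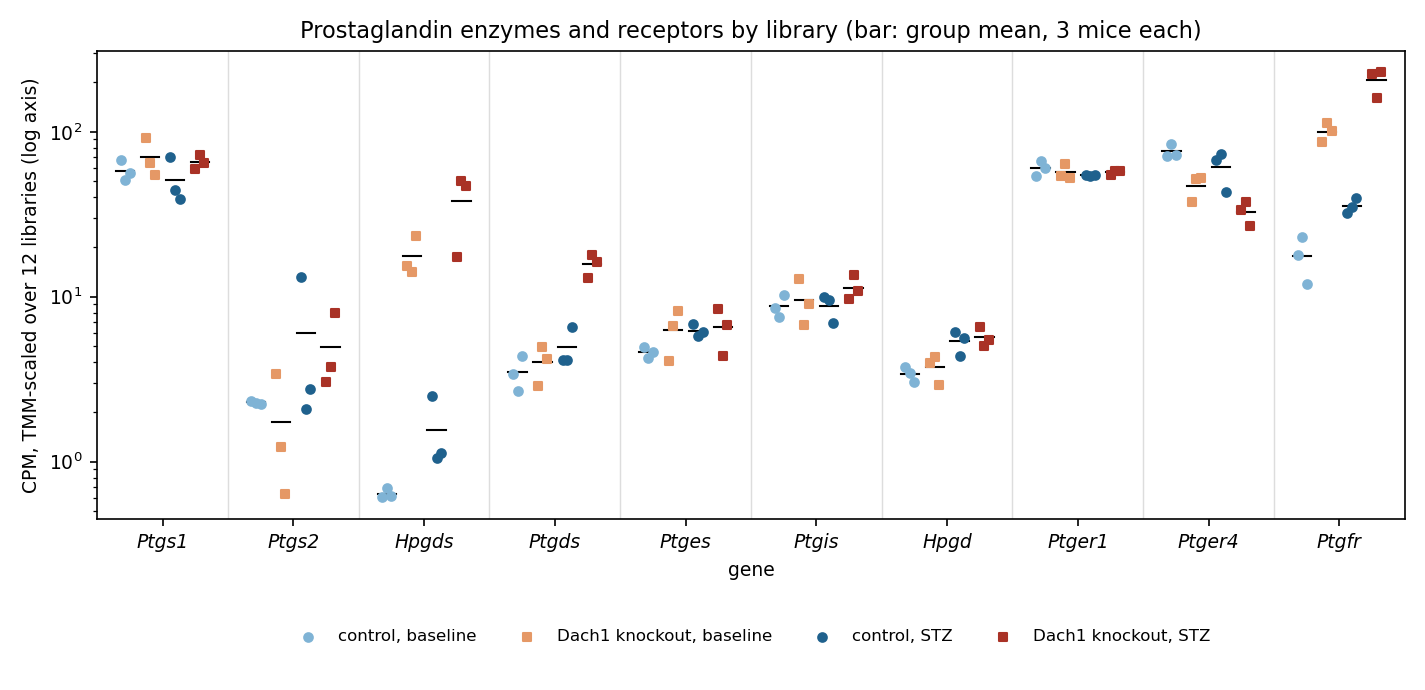
Level of each of the 10 genes in each of the 12 libraries, in TMM-scaled CPM on a log axis, with 3 mice per group and the group mean as a bar. Hpgds and Ptgfr separate knockout (squares) from control (circles) in both arms, Ptger4 is lower in knockouts within each arm, and Ptgds is highest in the STZ knockouts (13.1 to 17.9 CPM).

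Ptgfr, the prostaglandin F2α receptor, coupled mainly to calcium release and to contraction of smooth muscle, was the most abundant of the 10 genes in STZ knockouts. Baseline controls were at 17.9, 23.2 and 11.97 CPM and baseline knockouts at 86.6, 112 and 101 CPM. STZ controls were at 32.1, 35.1 and 39.5 CPM and STZ knockouts at 224, 160 and 230 CPM. All 6 knockouts lay above all 6 controls, the lowest knockout (86.6 CPM) being a baseline mouse and the highest control (39.5 CPM) an STZ mouse. The log2 fold change was 2.50 ± 0.26 (SE, 95% interval 1.87 to 3.12) at baseline and 2.53 ± 0.17 (95% interval 2.12 to 2.94) after STZ, or 5.66-fold and 5.77-fold. The interaction was 0.03 on the log2 scale with a 95% interval of −0.67 to 0.72, an interval that spans differences between the arms in either direction.

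Ptgfr lies on chromosome 3 from 151796502 to 151837630 (mm10, minus strand). Compared with baseline, the STZ libraries had higher Ptgfr in both genotypes without overlap, by 0.97 ± 0.24 on the log2 scale in controls (adjusted p = 0.220, edgeR) and 1.01 ± 0.17 in knockouts (adjusted p = 0.0986). Neither passed the threshold. STZ and baseline libraries also differ in depth, in how the tables were filtered and in the sexes they hold, so for every gene the treatment and these differences cannot be told apart.

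Ptger4, the receptor of prostaglandin E2 that raises cyclic AMP, went the other way. It stood at 71.0, 84.5 and 72.5 CPM in baseline controls and at 37.5, 51.5 and 52.5 CPM in baseline knockouts. After STZ it stood at 67.0, 73.5 and 43.1 CPM in controls and at 33.7, 37.3 and 27.0 CPM in knockouts. In each arm all 3 knockouts were below all 3 controls, although the lowest STZ control (43.1 CPM) was below the upper baseline knockouts. The log2 fold change was −0.69 ± 0.16 (SE, 95% interval −1.07 to −0.31) at baseline, −0.90 ± 0.23 (95% interval −1.45 to −0.35) after STZ and −0.80 ± 0.15 over both arms. From baseline to STZ it differed by −0.34 ± 0.21 in controls (adjusted p = 0.539) and −0.55 ± 0.18 in knockouts (adjusted p = 0.235), and the interaction was −0.22 ± 0.29. Ptger4 lies on chromosome 15 from 5206661 to 5244187 (mm10, minus strand) and shares exonic bases on the opposite strand with Ttc33 (82 bases) and with the pseudogene Gm15937 (1015 bases), which is not listed.

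Ptger1, the calcium-coupled receptor of prostaglandin E2, differed little in level between the groups. Its group means were 60.2 ± 6.3 (SD, n = 3), 56.6 ± 6.0, 54.5 ± 0.4 and 56.8 ± 1.9 CPM in baseline controls, baseline knockouts, STZ controls and STZ knockouts. The log2 fold changes between knockout and control were −0.09 (95% interval −0.39 to 0.21) at baseline and 0.06 (95% interval −0.17 to 0.30) after STZ. The strand handling is not given in the sources used here, so reads from the opposite strand cannot be told apart from those of Ptger1.

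Set beside each other per kb of exon, the receptors show how the make-up of the repertoire differed between groups. Of the summed level of 7 listed prostanoid receptors, Ptgfr took 4.20% ± 1.20 (SD, n = 3) in baseline controls and 21.4% ± 1.3 in baseline knockouts. After STZ it took 9.65% ± 0.91 in controls and 39.6% ± 3.8 in knockouts. Ptger4 took 18.5% ± 1.5 and 10.3% ± 1.6 at baseline, and 17.1% ± 5.0 and 6.59% ± 1.68 after STZ. Tbxa2r, the thromboxane receptor, ranked first in the other 3 groups (45.4% to 52.1%) and second, after Ptgfr, in STZ knockouts (34.6% ± 2.1). In that group the share of Ptgfr exceeded that of Tbxa2r in each of the 3 libraries, at 40.1% against 36.7%, 35.5% against 34.4% and 43.2% against 32.6%. A share also falls when another receptor rises. The mean level of Tbxa2r was 32.6 and 32.7 CPM per kb in baseline controls and knockouts, and 24.7 and 26.2 CPM per kb after STZ. These shares depend on annotated exon lengths and on how strands were counted.

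**Figure D2:**
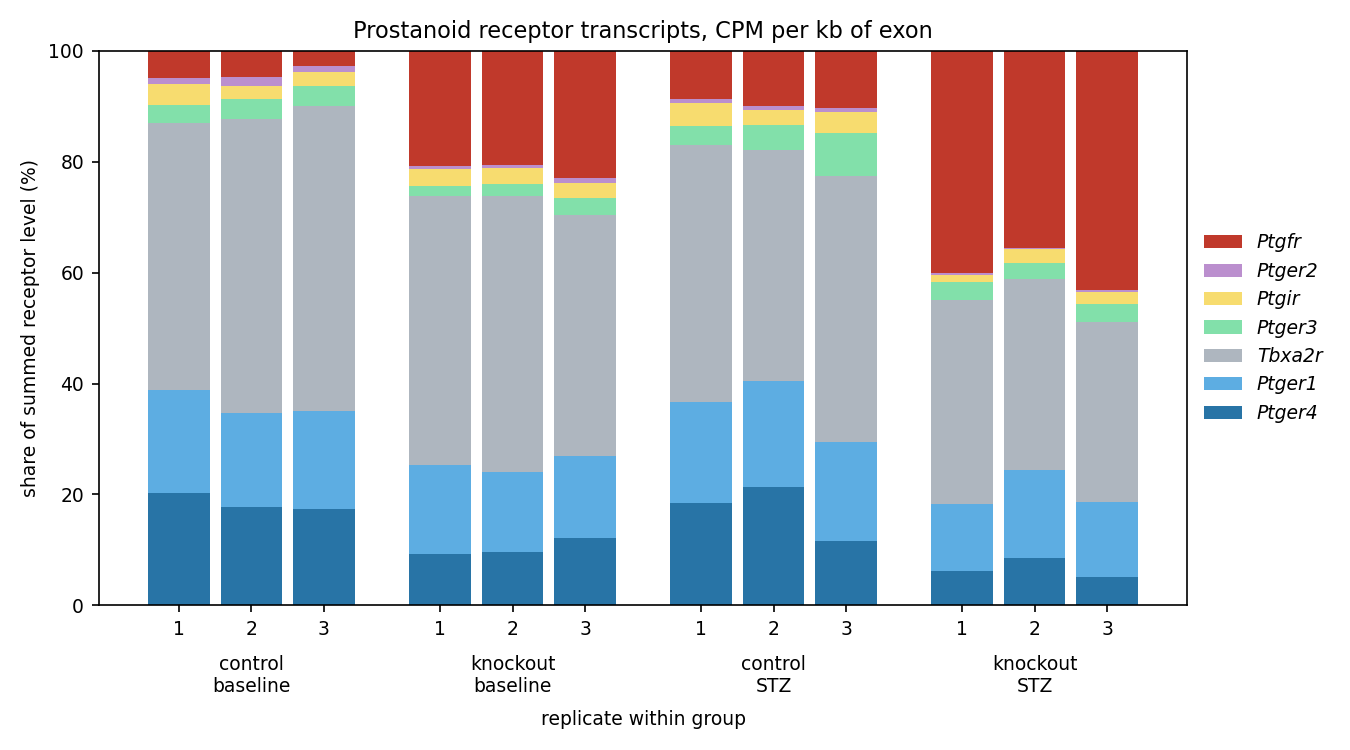
Share of each of 7 prostanoid receptors in their summed level (CPM per kb of exon, in %), with 1 stacked bar per library. The Ptgfr segment covers 2.82% to 10.4% of the bar in the 6 controls and 20.5% to 43.2% in the 6 knockouts, and the Ptger4 segment is thinner in knockouts than in controls of the same arm.

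The ratio of Ptgfr to Ptger4 per kb put both differences in 1 value. It was 0.162 to 0.269 in baseline controls, 1.89 to 2.27 in baseline knockouts, 0.468 to 0.898 in STZ controls and 4.21 to 8.37 in STZ knockouts. The 4 ranges do not overlap. Ptger4 thus exceeded Ptgfr in all 6 control libraries, and Ptgfr exceeded Ptger4 in all 6 knockout libraries. Both genes were chosen with their knockout differences, of opposite sign, in view. The separation of knockout from control in this ratio therefore describes the choice and tests nothing.

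The enzymes upstream differed less. Ptgs1, the constitutive cyclooxygenase, was the most abundant of the 10 genes per kb in all groups but the STZ knockouts, where Ptgfr exceeded it. It stood at 67.8, 50.7 and 56.2 CPM in baseline controls and at 92.1, 64.7 and 54.5 CPM in baseline knockouts. After STZ it stood at 69.9, 44.2 and 39.4 CPM in controls and at 59.7, 71.8 and 65.0 CPM in knockouts. The groups overlapped in both arms, with log2 fold changes of 0.28 (95% interval −0.25 to 0.80) and 0.36 (95% interval −0.20 to 0.91).

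Ptgs2, the inducible cyclooxygenase, was low and the most variable of the 10. Baseline controls lay close together at 2.34, 2.27 and 2.24 CPM, and baseline knockouts were spread at 3.40, 1.22 and 0.634 CPM. After STZ it was at 13.2, 2.09 and 2.75 CPM in controls and 3.04, 3.73 and 8.01 CPM in knockouts. The highest library, STZ control replicate 1, also had the highest sum of macrophage and dendritic cell markers (970 CPM, against 189 and 192 CPM in the other STZ controls). The part of those cells in the Ptgs2 value was not tested. The log2 fold change between knockout and control was −0.38 (95% interval −1.77 to 1.01) at baseline and −0.29 (95% interval −2.06 to 1.49) after STZ, so a difference of over 2-fold in either direction lies within both intervals. Without that control library the STZ value was 1.03. Ptgs1 exceeded Ptgs2 per kb in all 12 libraries and made up 86.2% to 99.0% of their sum.

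Ptges, the microsomal prostaglandin E synthase, Ptgis, the prostacyclin synthase, and Hpgd, the dehydrogenase that inactivates prostaglandins, overlapped between knockout and control in both arms. Ptges was at 4.28 to 4.98 CPM in baseline controls and 4.05 to 8.20 CPM in baseline knockouts, and at 5.74 to 6.81 and 4.36 to 8.47 CPM after STZ. Ptgis was at 7.52 to 10.3 and 6.70 to 12.8 CPM at baseline, and at 6.92 to 9.93 and 9.66 to 13.5 CPM after STZ. Hpgd was at 3.02 to 3.73 and 2.90 to 4.34 CPM at baseline, and at 4.38 to 6.14 and 5.02 to 6.52 CPM after STZ. Their 6 log2 fold changes between knockout and control lay between 0.07 and 0.45, and each 95% interval included 0. Hpgd was higher after STZ without overlap in both genotypes, by 0.63 ± 0.20 in controls (adjusted p = 0.316) and 0.58 ± 0.21 in knockouts (adjusted p = 0.282), which did not pass.

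**Figure D3:**
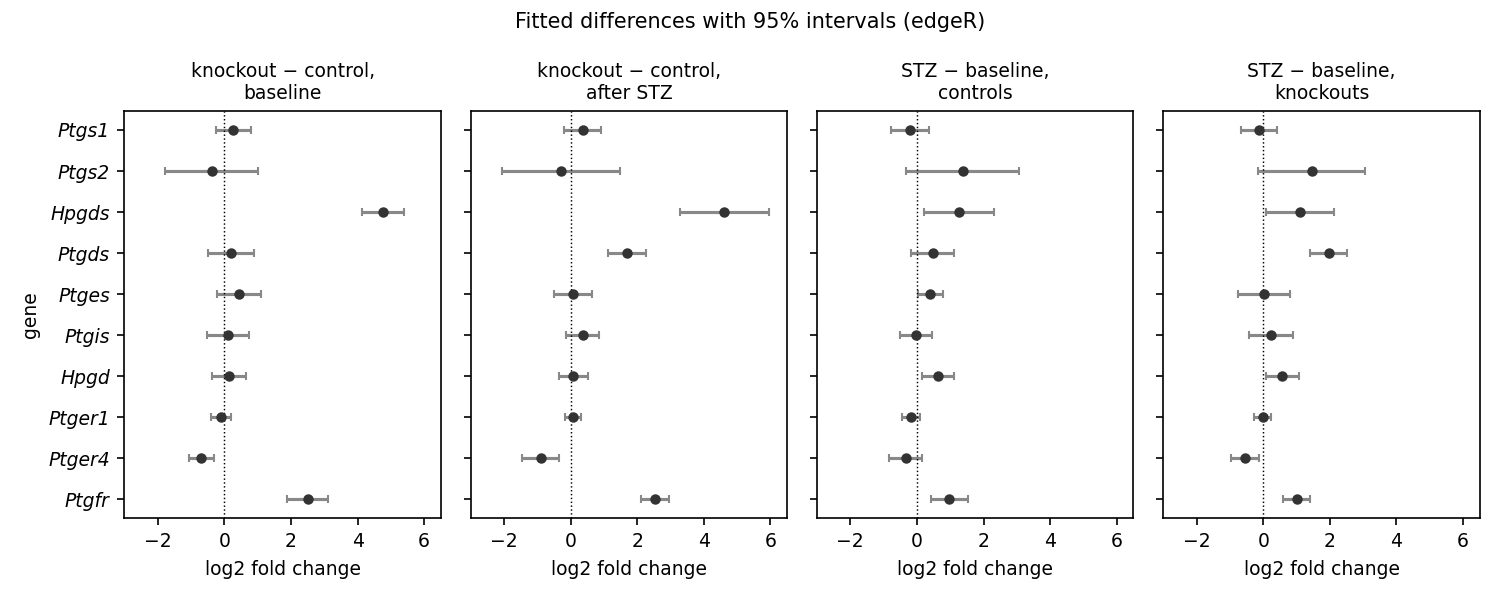
Fitted log2 fold changes of the 10 genes (points) with 95% intervals (lines) from edgeR, in 4 comparisons of 3 against 3 libraries. In the knockout comparisons Hpgds is the highest and Ptgfr the next in both arms, and Ptger4 is the lowest. Ptgds is near 0 at baseline (0.20) and follows Ptgfr after STZ (1.68). The genes were chosen with these differences in view, so the intervals of the knockout comparisons give the precision of each fit and test nothing.

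Counted against all genes, 2 of the 10 (Hpgds and Ptgfr) were called at an adjusted p under 0.05 by edgeR in the baseline knockout comparison, where 0.23% of all genes were. After STZ 3 of the 10 (Ptgds in addition) were called, where 1.07% of all genes were. Over both arms with the arm as a block 3 were called (Hpgds and Ptgfr higher, Ptger4 lower), against 2.83% of all genes. Groups did not overlap for 3 of the 10 at baseline (11.8% of all genes) and for 4 after STZ (15.2%). These contrasts were in view when the genes were chosen, so the counts describe the choice. The count called was 0 at baseline without control replicate 1 or control replicate 3, and 1 after STZ without control replicate 2, knockout replicate 2 or knockout replicate 3. It was 1 in each arm with sex as a covariate.

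For STZ against baseline, none of the 10 was called in controls (0.23% of all genes were) or in knockouts (0.178%) by edgeR, while 4 and 5 had an unadjusted p under 0.05, as did 12.6% and 14.7% of all genes. With DESeq2 1 and 2 were called, where it called 410 and 805 of the 13473 genes that passed the filter. Groups did not overlap for 4 of the 10 in controls (20.3% of all genes) and for 4 in knockouts (22.4%). The median log2 fold change of the 10 was 0.43 in controls and 0.40 in knockouts, against 0.02 and −0.02 over all genes. In the interaction, which is made of the knockout contrasts, none of the 10 was called by edgeR (0.00742% of all genes were) or DESeq2, and 1 had an unadjusted p under 0.05 (3.67% of all genes did). The STZ comparisons share their libraries with the knockout comparisons. Hpgds was higher after STZ by 1.25 ± 0.44 in controls (adjusted p = 0.352) and by 1.11 ± 0.42 in knockouts (adjusted p = 0.312), and Ptgs2 by 1.37 ± 0.71 (adjusted p = 0.475) and 1.45 ± 0.67 (adjusted p = 0.388).

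Other genes of the pathway were read from a list of 30 symbols, of which 25 were listed in at least 1 arm. None of the 24 tested at baseline or of the 25 tested after STZ was called between knockout and control, and 2 and 4 had an unadjusted p under 0.05 (6.94% and 9.08% of all genes did). Of the 4 with the smallest p after STZ, DESeq2 called Akr1c18 and Ptgfrn, among 565 genes that it called in all. Akr1c18, an aldo-keto reductase that inactivates progesterone and is known to act on prostaglandins, was at 0.995, 2.23 and 1.59 CPM in STZ controls and 4.66, 4.66 and 10.8 CPM in STZ knockouts, with a log2 fold change of 2.07 ± 0.44 (adjusted p = 0.119, edgeR). At baseline its groups overlapped, at 2.49 to 6.98 and 2.67 to 12.3 CPM. Ptgfrn, a membrane protein named as a negative regulator of the prostaglandin F2α receptor, had a log2 fold change of 0.55 ± 0.14 after STZ (adjusted p = 0.215). Slco2a1, the prostaglandin transporter, was at 481 to 614 CPM in baseline controls and 348 to 463 CPM in baseline knockouts (−0.42 ± 0.16, adjusted p = 0.694). Ptger2, another prostaglandin E2 receptor that raises cyclic AMP, was at 1.84 to 2.13 CPM in STZ controls and 0.748 to 1.69 CPM in STZ knockouts (−0.72 ± 0.29, adjusted p = 0.530).

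From the sister pathways of arachidonic acid, the lipoxygenase, leukotriene and cytochrome P450 routes, 26 of 28 searched symbols were listed in at least 1 arm. Between knockout and control, 0 of the 22 tested at baseline and 1 of the 26 tested after STZ were called by edgeR (0.23% and 1.07% of all genes were). An unadjusted p under 0.05 was found for 1 at baseline and 4 after STZ (6.94% and 9.08% of all genes). DESeq2 called none of the 4 with the smallest p at baseline. The epidermal-type lipoxygenase Alox12b rose in STZ knockouts, from 5.61 to 6.18 CPM in controls to 9.39 to 11.5 CPM, by 0.87 ± 0.14 on the log2 scale (adjusted p = 0.0463, edgeR). It did not pass at baseline (0.41 ± 0.16, adjusted p = 0.694) and passed over both arms (0.65 ± 0.12, adjusted p = 0.00923). The adjusted p after STZ exceeded the threshold when any 1 library was left out (0.0951 to 0.224) and with sex as a covariate. Ggt5, an enzyme that converts leukotriene C4, missed the threshold after STZ at 1.04 ± 0.18 (adjusted p = 0.0580, edgeR), and passed it with DESeq2 (adjusted p = 5.49e-05) and with proximal tubule markers as a covariate in edgeR (0.0386).

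**Figure D4:**
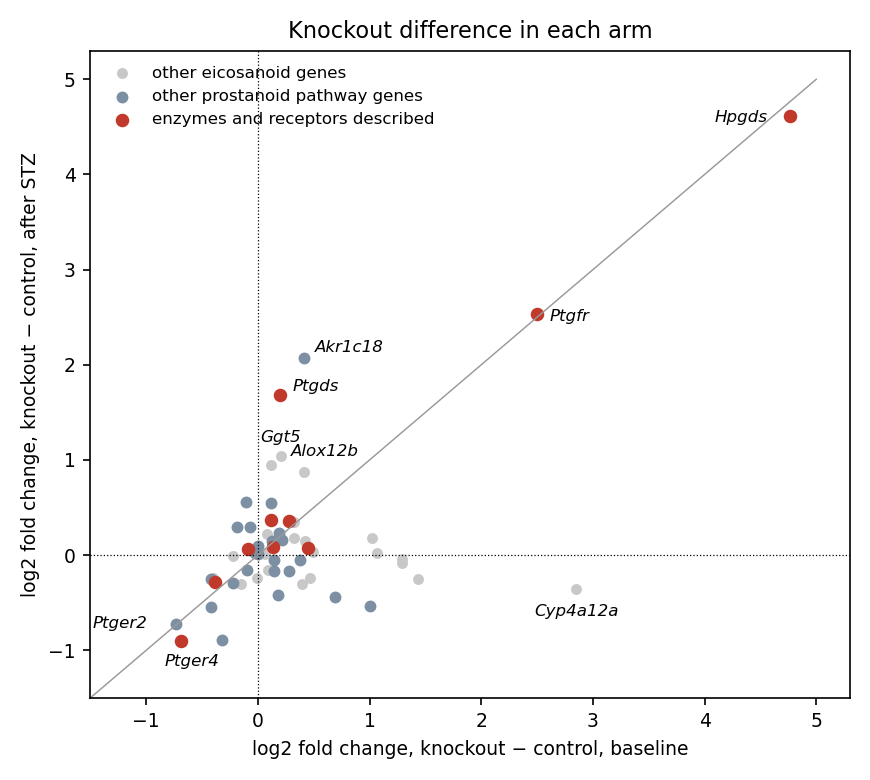
Log2 fold change between knockout and control at baseline (x axis) and after STZ (y axis) for the 10 genes, the other prostanoid pathway genes and the other eicosanoid genes listed in both arms, with the line of equal values. Hpgds and Ptgfr lie near the line at 4.76 and 4.62 and at 2.50 and 2.53, Ptgds lies above it at 0.20 and 1.68, and most other genes lie around 0.

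Across the 12 libraries, the genes with levels most like those of Hpgds were Il1f9, Frem1, Sorcs1, Lpcat4 and Adamtsl1 (Pearson r of log2 CPM 0.983 to 0.958 among 12908 genes). Those most like Ptgfr were Fam26e, Olfr613, Steap2, Il1f9 and Gabrb1 (0.982 to 0.966). Il1f9, an interleukin of the IL-36 group, was on both lists. Hpgds and Ptgfr had an r of 0.943 (Spearman 0.909) with each other, and −0.24 once the group means were removed: among STZ knockouts Hpgds was lowest in replicate 1 and Ptgfr in replicate 2. The 12 points share 4 groups, so the values describe differences between groups.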

How the data were processed

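For each of 12 libraries the authors deposited a table of read counts per gene symbol. The deposited values were read as estimated counts, since 10.5% to 11.5% of those of a library end in 0.5. They were rounded before modelling, and 18 blanks were taken as 0. BWA and mm10 are named in the submitters' processing notes, with no version. How reads were counted, on which annotation and with which strand setting is not given in the sources used here.

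Genes passing filterByExpr were scaled by TMM and tested with edgeR's quasi-likelihood F test (R 4.3.3, edgeR 4.0.16 and limma 3.58.1). P-values were adjusted by Benjamini-Hochberg over all genes tested, and a gene was called under 0.05. Each arm had its own fit for the genotype, while the STZ, interaction and blocked fits used genes listed in both arms. CPM in the text are on a single TMM scale over the 12 libraries. The standard error comes from the F statistic, and 95% intervals use the fit's degrees of freedom. Levels per kb use the union of GENCODE M21 exons. Reads carried no molecular identifiers, so counts are not counts of molecules. Chi-square per degree of freedom between replicates of a group was 42.0 to 352, so no library was a duplicate of another in its group.

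The text names all 10 genes. From the other lists it could name every gene called and up to 4 of smallest p per comparison; Cyp4a12a is marked in a plot outside that rule. The genes most alike were the 5 of highest r, with predicted-gene and clone symbols left out. The members and lists were chosen with earlier results of these data known. Alternatives were DESeq2 1.42.0, RLE scaling, no filter, sex or proximal tubule markers as a covariate, and leaving out each library. The steps were tested on simulated data. At baseline, the knockout comparison recovered 1.49% of 1.5-fold, 19.4% of 2-fold and 93.9% of 4-fold changes. Of its 90 calls, 14 were false. After STZ it recovered 0%, 20.9% and 95.5%, with 4 of 81 calls false. Of 2-fold changes, 25.4% were recovered for STZ in controls, 19.4% in knockouts, 11.9% in the interaction and 79.1% over both arms. A gene not called may thus still differ by 2-fold.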

Additional observations from a re-analysis of the deposited data

How the results depend on the processing

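No paired analysis was possible because the labels number no mice alike across groups: the replicate numbers here follow the order of deposit and only name a mouse. Leaving out each library in turn kept the direction of Hpgds (4.51 to 4.90 on the log2 scale at baseline, 4.36 to 5.14 after STZ), Ptgfr (2.28 to 2.74 and 2.43 to 2.67), Ptger4 (−0.77 to −0.56 and −1.11 to −0.75) and Ptgds after STZ (1.56 to 1.93). The calls were less stable. Hpgds lost its call at baseline without control replicate 1 (4.73) or control replicate 3 (4.74), and after STZ without control replicate 2 (4.399) or 3 (4.42) or knockout replicate 2 (4.36) or 3 (4.45). Ptgfr lost its baseline call without any one library other than knockout replicate 1, and kept its STZ call in each such fit. Ptgds lost its STZ call without any one library other than control replicate 3. Ptger4 was called at baseline and after STZ with DESeq2, and at baseline with the proximal tubule covariate (−0.83).

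The number of the 10 genes called when 1 library was left out was 0 to 2 at baseline (2 with all libraries), 1 to 2 after STZ (3), 0 for STZ in either genotype and for the interaction, and 3 to 4 over both arms (3). With sex as a covariate it was 1 at baseline and 1 after STZ (Ptgfr). For STZ in controls DESeq2 called 1 (Ptgfr), and for STZ in knockouts DESeq2 and the proximal tubule covariate each called 2 (Ptgds and Ptgfr).

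Over all genes, DESeq2 called 220 at baseline, 565 after STZ, 410 for STZ in controls, 805 for STZ in knockouts, 31 in the interaction and 697 over both arms, against 31, 175, 31, 24, 1 and 381 with edgeR. The proximal tubule covariate gave 61, 337, 54, 318 and 0 for the first 5 of these, sex gave 10, 63, 6, 9 and 0, and RLE scaling gave 2 in the interaction. Leaving out a library gave 4 to 51, 40 to 109, 4 to 12, 1 to 8, 0 to 2 and 268 to 425.

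Small differences changed sign. With sex as a covariate, STZ in knockouts gave 0.028 for Ptger1, −0.21 for Ptges and 0.016 for Ptgs1. With the proximal tubule covariate, STZ in controls gave 0.041 for Ptgis. Leaving out a library gave ranges across 0 after STZ for Hpgd (−0.050 to 0.19), Ptges (−0.15 to 0.28) and Ptgs2 (−0.82 to 1.03). It did so at baseline for Ptgis (−0.18 to 0.31) and Ptgs2 (−1.30 to 0.027). It did so in STZ comparisons for Ptger1 (−0.082 to 0.057), Ptges (−0.20 to 0.25) and Ptgs1 (−0.30 to 0.13) in knockouts and Ptgis (−0.12 to 0.14) in controls, and in the interaction for Hpgds (−0.41 to 0.36) and Ptgfr (−0.22 to 0.23). The cause of these changes was not tested. Hpgds in baseline controls rests on 14 to 18 counts per library, which limits its fold.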

Other observations

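Smooth muscle and renin markers, read beside Ptgfr as a receptor known from contractile cells, did not overlap between knockout and control in either arm. Their sum was 1603 to 1884 CPM in baseline controls and 1209 to 1556 CPM in baseline knockouts, and 1434 to 1540 CPM in STZ controls and 1627 to 3079 CPM in STZ knockouts (two-sided exact permutation p = 0.1 in each arm, the smallest that 3 against 3 allows). The higher sum after STZ rests on Tagln, an actin-binding protein, which averaged 64.9 CPM in STZ controls and 885 CPM in STZ knockouts, a wider gap than that of the whole sum (1499.5 and 2266 CPM on average). Acta2, smooth muscle actin, was also higher in STZ knockouts, with averages of 70.4 CPM in STZ controls and 90.8 CPM in STZ knockouts. The other markers were close or lower after STZ, with Mylk at 812 and 827 CPM, Rgs5 at 122 and 121 CPM, Myh11 at 49.9 and 48.9 CPM and Akr1b7 at 11.9 and 10.3 CPM. Ren1, which encodes renin, averaged 369 and 283 CPM after STZ, and 408 and 152 CPM at baseline. At baseline Tagln was the 1 marker of the list with the higher mean in knockouts, at 89.0 and 151 CPM. Podocyte marker sums overlapped between genotypes in both arms, at 22160 to 30363 and 20029 to 24745 CPM at baseline and 31809 to 39490 and 33097 to 34689 CPM after STZ. The part of any of these cells in the prostaglandin genes was not tested.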
